A study of Homo sapiens and Mus musculus with 16 samples.

Results

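Mouse embryonic stem (ES) cell P-bodies were compared with the cytoplasm of the same cells in 4 of the 16 libraries of the study, 2 from sorted P-bodies and 2 from cytoplasm. The libraries were chosen by their sample labels, and every gene with a row in the mouse count table was tested, 15881 in all. The labels name the cells KH2-LSM14a-GFP, give the treatment as serum-LIF, and describe total RNA made into libraries with the Snap seq protocol, a method that primes on random sequence. The methods of the study describe mouse ES cells in a defined N2B27 medium with kinase inhibitors and LIF, so the medium of these cultures is given differently by the labels and by the methods. The line is named differently too. The methods name a line other than KH2, from a cross of inbred mouse strains, whereas the reporting summary of the study lists KH2 ES cells, as male. How these lines are related is not stated, so the parental background may be the same. Both fractions carried the same transgene, GFP fused to LSM14A under the EF1a promoter of a lentiviral vector, and nothing states whether the line was a single clone. The cytoplasm libraries came from the resuspended pellet of the cleared lysate, taken before particles were sorted, so they hold P-body RNA as well. By the methods, RNA that did not sediment with that pellet is in neither fraction, and cytoplasm below means this pellet. The labels number the libraries of each fraction 1 and 2 and do not say whether these were separate cultures, so the p-values below measure the spread between these samples, which may be technical.

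P-bodies are cytoplasmic condensates of RNA and protein without a membrane. They gather the decapping machinery, the helicase DDX6, LSM14A, deadenylases and microRNA effectors, and mRNAs found in them are generally poorly translated. Mouse ES cells keep the gene network of the early embryo epiblast, and a small share of cells in such cultures passes through a state that transcribes genes of the 2-cell embryo. The comparison asks which transcripts of these cells make up a larger or a smaller share of sorted P-bodies than of the pelleted cytoplasm.

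The P-body libraries held 11721055 and 10871736 counts and the cytoplasm libraries 8148119 and 8433915, so the detection floor of 3 counts lay at 0.256 to 0.368 counts per 1000000 (CPM). Floors of this kind cover counting error only. The ± values below are standard errors from the fitted test, which include the spread between replicate libraries. The Spearman correlation between replicates over all genes was 0.988 in P-bodies and 0.978 in cytoplasm, and their counts differed by more than sampling noise. The 45S ribosomal RNA gene Rn45s took 3.16% and 3.09% of P-body counts and 9.63% and 11.0% of cytoplasm counts. All 10 ES cell markers of a fixed list were counted, from 5.30 to 369 CPM per kb of transcript, whereas 9 of 12 fibroblast and feeder markers, among them Col1a1 and Col3a1, had no row. The other 3 summed to 65.4 and 66.1 CPM in P-bodies and 88.5 and 88.2 in cytoplasm. Markers of extraembryonic endoderm, 8 of 10 with a row, summed to 65.5 to 101 CPM over the 4 libraries and those of mesendoderm, 4 of 8, to 26.0 to 33.3 CPM, while neural markers, 9 of 10, summed to 280.0 and 301 CPM in P-bodies and 218 and 217 in cytoplasm. Levels below are CPM scaled by TMM, a factor per library that sets aside genes with extreme ratios, and log2 changes are P-body against cytoplasm, so that a positive value is P-body enrichment.

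Of 15881 genes, 4104 were enriched in P-bodies, 25.8% of those tested, and 3271 were depleted, 20.6% (edgeR quasi-likelihood test, Benjamini-Hochberg adjusted p under 0.05, no minimum fold). These calls were unevenly spread over expression level. Among the 9176 genes whose level averaged 5 CPM or more, 3914 were enriched (42.7%) and 2121 depleted (23.1%), and among the 6705 below that level 190 were enriched (2.83%) and 1150 depleted (17.2%). The share enriched was 0.371% below 1 CPM, 5.999% from 1 to 5 CPM, 22.4% from 5 to 20, 45.2% from 20 to 100 and 68.6% from 100 CPM upward. The share depleted was 21.8%, 11.2%, 19.7%, 27.4% and 21.2% in the same order, and the median log2 change moved from -1.16 in the lowest class to 0.59 in the highest. At 5 CPM or more, 1462 enriched genes and 90 depleted genes had changes of at least 2-fold. The split depended on scaling. With library size only, 2591 genes were enriched and 6609 depleted, and at 5 CPM or more 2514 and 4427, because the median log2 change of the genes of at least 5 CPM moved from 0.14 to -0.27, a shift of -0.40 that applies about equally to every value below.

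**Figure D1:**
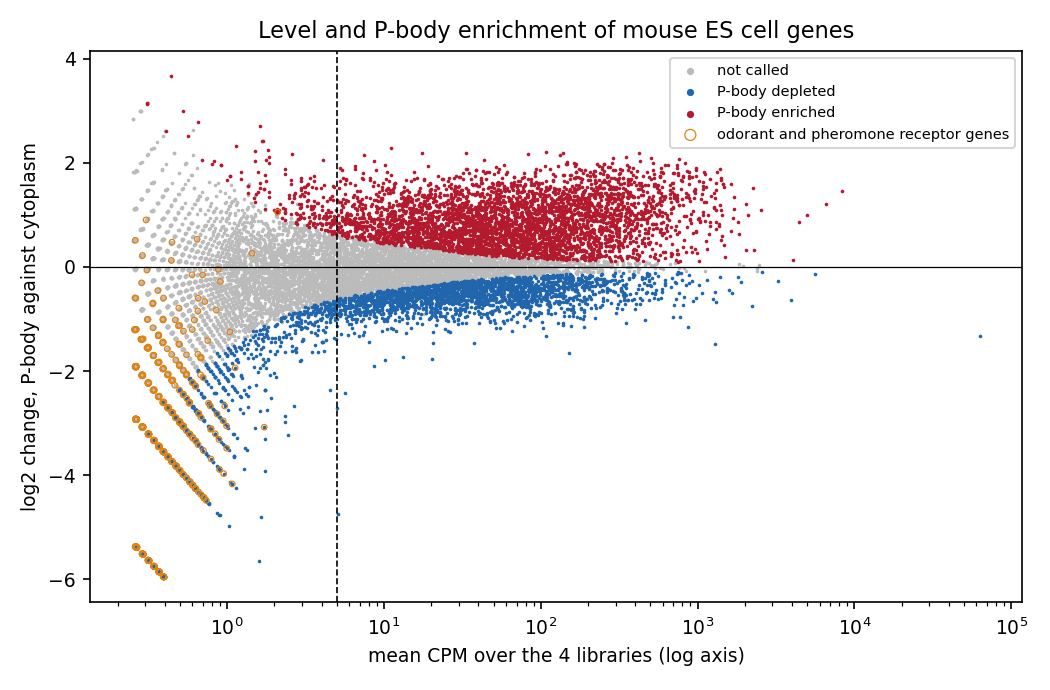
Each point is a gene, with its mean CPM over the 4 libraries on a log axis and its log2 change of P-body against cytoplasm. Red points were enriched, blue points depleted and grey points not called. Orange rings mark odorant and pheromone receptor genes and the dashed line stands at 5 CPM. Left of it the called genes are mostly blue and many are receptor genes. Right of it red points outnumber blue ones. The 74 genes with a change of 6 or more in size, all with 0 counts in both libraries of a fraction, lie outside the axis.

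Weakly counted genes were set apart because genes that ES cells do not use were raised in the cytoplasm libraries. Odorant, vomeronasal, taste and trace amine receptor genes, which serve sensory neurons and cells of the nose and tongue, number 1468 in the annotation, and 560 receptor genes had a row, 549 of them among the 1468. Their summed counts were 620 and 481 in P-bodies and 3964 and 3860 in cytoplasm, or 52.9 and 44.2 CPM against 486 and 458 CPM by library size, and the fractions did not overlap. In P-bodies 289 and 305 of the 560 were at 0, and in cytoplasm 7 and 10. As the table keeps only genes with at least 10 counts in all, these receptors entered mostly through the cytoplasm libraries, so their own count of calls is no separate evidence. Another 21 genes of tissue-restricted families, such as milk, keratin-associated and major urinary proteins, summed to 65 and 87 counts in P-bodies and 182 and 210 in cytoplasm. The same check on 410 human receptor genes gave 93.7 and 91.5 CPM in P-bodies of HEK293T, a human kidney line, against 70.3 and 87.4 in its cytoplasm. It gave 82.5 and 82.6 against 202 and 189 CPM in human liver bud progenitors and 428 and 439 against 55.6 and 56.3 in human neurons, so the fraction with more receptor counts was not the same in each cell type.

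The receptor counts were spread over the coding length of these genes. Taken over all annotated receptors they amounted to 0.303 and 0.286 CPM per kb in cytoplasm and 0.0331 and 0.0279 in P-bodies. Over those with a row they amounted to 0.750 and 0.706 against 0.0819 and 0.0689. Both rates were applied to whole transcripts, untranslated parts included, so they may be too high. The lower rate would account for a median of 50.4% of the cytoplasm counts of the 1150 depleted genes under 5 CPM, and for a median of 1.63% in the 2121 depleted genes of at least 5 CPM. With that rate subtracted from each library the depleted genes numbered 182 under 5 CPM and 1886 at 5 CPM or more, and 1885 of the latter were among the 2121. With the higher rate they numbered 72 and 1673. Enriched genes at 5 CPM or more then numbered 4135 and 4529. The depletion of weakly counted genes was thus largely lost on subtraction and that of well counted genes largely kept. The rate was higher in cytoplasm and weighs most beside low counts, so this outcome follows from the subtraction itself. It is no separate evidence on either set of genes. The results below are for genes of at least 5 CPM unless another level is named. Where the receptor counts came from was not tested.

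**Figure D2:**
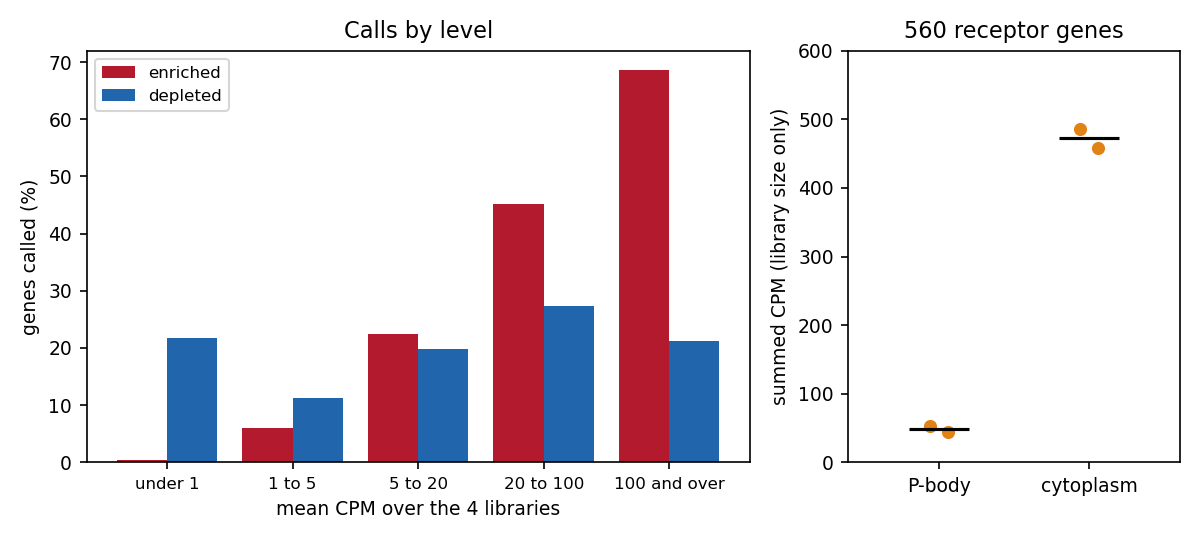
The bars give the percentage of genes enriched (red) and depleted (blue) in P-bodies in 5 classes of mean CPM over the 4 libraries, and the points give the summed CPM, by library size, of 560 receptor genes in each library, with a line at the mean of each fraction. Enriched genes grow from 0.371% to 68.6% of a class with level, and the receptor sum is 44.2 to 52.9 in P-bodies and 458 to 486 in cytoplasm.

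The largest changes were taken among called genes of at least 20 CPM whose fractions did not overlap, 15 in each direction. Ccne2, cyclin E2, a driver of entry into S phase (chromosome 4, 11191354 to 11204675, plus strand in mm10), had 711 and 684 CPM in P-bodies and 154 and 154 in cytoplasm, giving a log2 change of 2.18 ± 0.04 (SE). Kif18a, a kinesin that dampens chromosome movement at metaphase (chromosome 2, 109280738 to 109341747, plus strand), had 1222 and 1216 CPM in P-bodies and 299 and 284 in cytoplasm and changed by 2.06 ± 0.04. Mbip, which encodes a subunit of the ATAC histone acetyltransferase complex (chromosome 12, 56328303 to 56345894, minus strand), had 228 and 225 CPM in P-bodies and 48.5 and 50.9 in cytoplasm and changed by 2.19 ± 0.06. For these 3 genes each P-body library lay above both cytoplasm libraries, as the naming rule requires. The DNA polymerase gene Polk, which copies past damaged bases (chromosome 13, 96480690 to 96542485, minus strand), had 1180.4 and 1135 CPM in P-bodies and 305 and 314 in cytoplasm, a change of 1.90 ± 0.04. Of the 15 genes with the largest enrichment by the naming rule, Zfp938, Zfp951, Zfp39, Zfp968, Zfp51, Zfp429, Zfp53 and Zfp945 are zinc finger genes with changes from 1.99 to 2.18, and the predicted genes Gm32687, 5730507C01Rik and Gm14391 changed by 2.21, 2.17 and 2.02. Whether these predicted genes encode zinc fingers too was not checked. Adjusted p-values of the genes named with values in this paragraph lay between 3.14e-21 and 6.59e-14 (edgeR).

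Amd2 is also among those 15 and is uncertain. It encodes a copy of S-adenosylmethionine decarboxylase, an enzyme of polyamine synthesis, and its reads can be split with Amd1. Amd2 had 1881 and 834 counts in P-bodies and 0 in both cytoplasm libraries, whereas Amd1 had 197 and 989 in P-bodies and 925 and 949 in cytoplasm. The 2 copies traded reads between the P-body libraries, and their sum, 204 and 192 CPM in P-bodies against 98.3 and 98.3 in cytoplasm, corresponded to a log2 ratio of 1.01. The translation initiation genes Eif3j1 and Eif3j2 behaved alike. Eif3j1 had 0 and 537 counts in P-bodies and 0 in both cytoplasm libraries, and the sum with Eif3j2 was 228 and 214 CPM against 118 and 115, a log2 ratio of 0.92. Amd1 and Eif3j2 were added after their values were seen.

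On the depleted side, Neat1, the long noncoding RNA that builds nuclear paraspeckles (chromosome 19, 5824708 to 5845478, minus strand), had 9.83 and 8.54 CPM in P-bodies and 29.4 and 33.3 in cytoplasm, giving a log2 change of -1.77 ± 0.15. Its transcript is 20771 bases long, so the receptor rates per kb would account for a sizable share of its cytoplasm counts. Kmt2d, a methyltransferase that marks enhancers on histone H3 (chromosome 15, 98831672 to 98871204, minus strand), had 71.8 and 75.6 CPM in P-bodies and 238 and 223 in cytoplasm and changed by -1.65 ± 0.06. The cadherin Celsr1 changed by -1.17, and Atn1 and Pcnx3 by -1.18 and -1.23. Rn45s had 36473 and 35386 CPM in P-bodies and 83365 and 96512 in cytoplasm, a change of -1.32 ± 0.04. Lars2, a mitochondrial leucyl-tRNA synthetase gene, changed by -1.48 ± 0.05, with 693 and 669.9 CPM in P-bodies and 1731 and 2059 in cytoplasm. Like Rn45s, it was higher in cytoplasm replicate 2 than in replicate 1. Whether all counts of Lars2 come from its own mRNA was not tested, so its value is uncertain. Rpl39, Rplp1, Psmb6 and the histone genes H2bc15 and H1f1 make up much of the rest, with changes from -1.46 to -1.17. Adjusted p-values of these genes lay between 1.6e-18 and 5.09e-08 (edgeR). The naming rule required both cytoplasm libraries to lie above both P-body libraries in each of these genes. With library size only each of them remained depleted and each enriched gene of the previous paragraphs remained enriched.

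C2H2 zinc finger genes, which encode the largest group of mammalian DNA-binding proteins, were the most enriched of the families described here. Members were taken by gene symbol, so a zinc finger gene with another kind of symbol counts among the other genes. Of 391 genes so named, 316 were enriched (80.8%) and 13 depleted (3.32%), where 42.7% and 23.1% of all genes of this level were. Their median log2 change was 1.25 (0.85 with library size only). In the Zfp900 name series, many of whose members carry a KRAB repressor domain and silence retroviral elements, 52 of 53 were enriched and 0 depleted by edgeR (0 at an unadjusted p under 0.05 and 0 by DESeq2), with a median of 1.67 and a range from 0.30 to 2.18. The remaining member did not pass. Many of these genes are recent duplicates that share sequence, so values of single members are uncertain. Zfp433 was listed at 0 in each P-body library and had 10.8 and 15.3 CPM in cytoplasm, and its value is uncertain for the same reason.

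Zinc finger transcripts are rich in A and U, and the family was therefore set beside other genes in the same class of GC content. Among transcripts under 44% GC, 190 zinc finger genes had a median log2 change of 1.59 and 1717 other genes one of 0.92. From 44 to 48% GC the medians were 1.14 for 64 zinc finger genes and 0.46 for 1897 others, and from 48 to 52% they were 0.81 for 65 and 0.09 for 1926. At 52% GC or more, 70 zinc finger genes had a median of 0.00 and 3114 others -0.33. The zinc finger genes thus had the higher median in each class, and within the family the median fell from class to class as GC content rose. The classes are wide. Over all genes the median was 1.25 under 40% GC and 0.88 from 40 to 44%, so composition can still differ within a class. Whether the family is enriched beyond its composition was not tested. These medians are descriptions, as members of a family are not independent.

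Most transcripts for the mitotic apparatus were enriched. Of 49 kinetochore and spindle genes 37 were enriched (75.5%) and 4 depleted (8.16%), beside 42.7% and 23.1% of all genes of this level, with a median of 0.62 (0.22 with library size only). Sgo1, the shugoshin that protects cohesion at centromeres, had 1358 and 1317 CPM in P-bodies and 386 and 359 in cytoplasm, giving a log2 change of 1.85 ± 0.04. Kif20b, a kinesin of cytokinesis, had 1998 and 1951 CPM in P-bodies and 655 and 643 in cytoplasm and changed by 1.61 ± 0.04. The depleted Spc24, Cenpt and Cdca8 changed by -0.59, -0.56 and -0.39. DNA repair genes had 22 enriched (57.9%) and 5 depleted (13.2%) of 38, with a median of 0.38 (-0.02 with library size only). Besides Polk these included Lig4, the ligase of end joining, at 1.32, and the checkpoint kinase Chek1 at 1.23, whereas Trp53, the p53 gene, changed by -0.56, the mismatch repair gene Msh6 by -0.50 and Fanca by -0.45.

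Chromatin regulators were found on both sides. Of 25 polycomb genes, whose proteins keep developmental genes silent, 17 were enriched (68%) and 1 depleted (4%), beside 42.7% and 23.1% of all genes of this level, with a median of 0.39 (-0.01 with library size only). Mtf2, an accessory subunit of the PRC2 methyltransferase, had 2189.8 and 2204 CPM in P-bodies and 756 and 769 in cytoplasm, a change of 1.53 ± 0.03. Rnf2 and Bmi1, subunits of the PRC1 ubiquitin ligase, changed by 1.51 and 1.47, and the PRC2 core genes Eed, Ezh2 and Suz12, added after their values were seen, by 1.42, 0.80 and 0.78. DNA methylation and TET genes had 7 enriched (58.3%) and 1 depleted (8.33%) of 12, with a median of 0.29 (-0.11 with library size only). Tet2 and Tet1, which oxidise methylcytosine, were among the most heavily counted transcripts of these libraries. Tet2 (chromosome 3, 133463679 to 133544390, minus strand) had 12216 and 12278 CPM in P-bodies and 4582 and 4296 in cytoplasm, a change of 1.46 ± 0.03, and Tet1 had 6645 and 6623 CPM in P-bodies and 3425 and 3205 in cytoplasm, a change of 1.00 ± 0.03. In both genes the P-body libraries lay above the cytoplasm libraries, and the fractions did not overlap in 95.6% of all genes of at least 100 CPM.

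Histone methyltransferase and demethylase genes had 21 enriched (56.8%) and 8 depleted (21.6%) of 37, beside 42.7% and 23.1% of all genes of this level, with a median of 0.24 (-0.16 with library size only). Setdb2, Kdm6a and Kmt2e were enriched, at 1.57, 1.48 and 1.36, while Kmt2d, Kdm6b and Ehmt2 were depleted, at -1.65, -1.03 and -0.81. The paralogs Kdm6a and Kdm6b, both demethylases of the polycomb mark, therefore lay on opposite sides, and they did so with library size only too. Kdm6a had 988 and 969 CPM in P-bodies and 368 and 332 in cytoplasm, and Kdm6b had 53.7 and 59.0 CPM in P-bodies and 109 and 120.5 in cytoplasm. Among 32 chromatin remodeler genes 18 were enriched (56.2%) and 12 depleted (37.5%), with a median of 0.28 (-0.12 with library size only). Baz2b changed by 1.34 ± 0.03 and its paralog Baz2a by -0.72 ± 0.04, and Hells and Srcap by 1.12 and -1.03.

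The core pluripotency factors were divided between the fractions. Sox2 (chromosome 3, 34650405 to 34652461, plus strand) had 529 and 539.9 CPM in P-bodies and 228 and 241 in cytoplasm, giving a log2 change of 1.19 ± 0.04 (edgeR adjusted p = 4e-17). Pou5f1, which encodes OCT4 (chromosome 17, 35506018 to 35510772, plus strand), had 429 and 448 CPM in P-bodies and 561 and 573 in cytoplasm, a change of -0.37 ± 0.04 (edgeR adjusted p = 3.43e-08). The libraries of the fractions did not overlap for either gene, nor did they in 95.6% of all genes of at least 100 CPM. Nanog (chromosome 6, 122707568 to 122714633, plus strand) had 736 and 752 CPM in P-bodies and 629 and 599 in cytoplasm, a change of 0.28 ± 0.04 (edgeR adjusted p = 1.81e-06) that turned to -0.13 with library size only, so its direction depends on scaling, whereas those of Sox2 and Pou5f1 were kept.

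Among 23 genes of the naive state, which resembles the preimplantation epiblast, 13 were enriched (56.5%) and 7 depleted (30.4%), beside 42.7% and 23.1% of all genes of this level, with a median of 0.35 (-0.05 with library size only). Besides Tet2, Dppa2 had 294 and 292 CPM in P-bodies and 131 and 127 in cytoplasm, a change of 1.18 ± 0.05, and Prdm14, which restrains DNA methylation in naive cells, had 155 and 155 CPM in P-bodies and 73.8 and 69.8 in cytoplasm, a change of 1.11 ± 0.06. Zfp42, the marker also called Rex1, had 269 and 267 CPM in P-bodies and 132 and 143 in cytoplasm and changed by 0.96 ± 0.05. By in situ hybridization, the study placed Dppa2 and Zfp42 mostly in cytoplasm of naive ES cells and in P-bodies of primed ones. That method locates molecules, whereas the values here compare shares of sorted P-bodies and of pelleted cytoplasm. Nr5a2 and Klf4, added after their values were seen, changed by 1.04 and 0.76. The depleted members included Esrrb, a nuclear receptor of the naive network, with 308 and 309 CPM in P-bodies and 474 and 476 in cytoplasm and a change of -0.62 ± 0.04. Dppa5a changed by -0.46. Tfcp2l1, the most heavily counted of the naive transcription factors on the list and also added after its values were seen, had 2488 and 2474 CPM in P-bodies and 2657 and 2673 in cytoplasm and changed by -0.10 ± 0.03, a call that was lost without P-body replicate 2, at -0.07. The naive genes therefore did not move as a block, and 3 of the 23 did not pass in either direction.

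Of 11 genes of the primed state, the later epiblast, 4 were enriched (36.4%) and 1 depleted (9.09%), beside 42.7% and 23.1% of all genes of this level, with a median of 0.21 (-0.19 with library size only) that was 0.06 without cytoplasm replicate 2 and 0.14 without P-body replicate 1. Zic5, a zinc finger factor of that stage, had 80.9 and 85.0 CPM in P-bodies and 39.7 and 37.2 in cytoplasm, giving a change of 1.11 ± 0.08.

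Of 48 genes of the 2-cell stage on a list 30 had a row and 11 reached 5 CPM, of which 7 were enriched (63.6%, beside 42.7% of all genes of this level) and 0 depleted by edgeR (0 at an unadjusted p under 0.05 and 0 by DESeq2), with a median of 0.70 (0.30 with library size only). The median GC content of these 11 was 44.4%, and 62.5% of genes outside the zinc finger family with 44 to 48% GC were enriched. Over the 30 with a row, 9 were enriched, 30% beside 25.8% of all genes tested, and 0 depleted, with a median of 0.40. Zscan4f, which acts in telomere maintenance in these cells, had 148 and 153 CPM in P-bodies and 62.1 and 59.5 in cytoplasm, a change of 1.31 ± 0.06. Zscan4c and Zscan4d had changes of 1.30 ± 0.10 and 1.06 ± 0.18, and Zscan4a and Zscan4b, added after their values were seen, changed by 0.98 and 0.70. The 5 Zscan4 genes are closely related copies on chromosome 7 that can share reads, so they count as 1 observation more than as 5. Dppa2, on both the naive and the 2-cell list, is the most heavily counted of the 11. Dux, the activator of the 2-cell program, had 1.38 and 1.48 CPM in P-bodies and 0.956 and 1.35 in cytoplasm and did not pass, at 0.30 ± 0.53 (-0.09 with library size only), and was added after its values were seen. As the RNA was pooled over cells, a high level in few cells and a low level in many cannot be told apart.

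**Figure D3:**
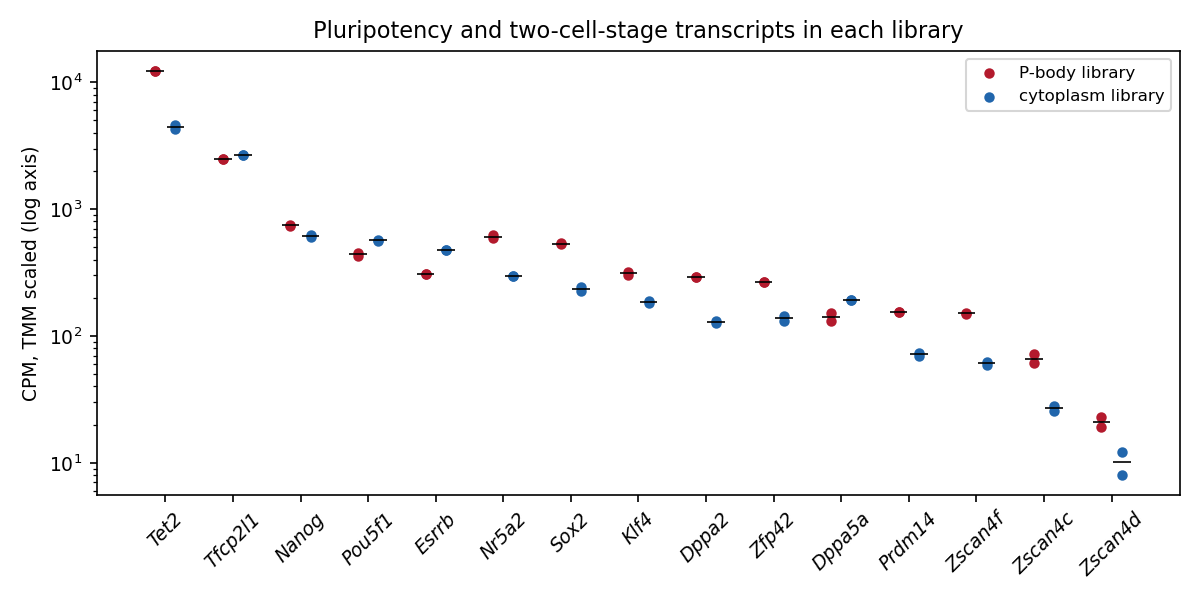
Dots give the TMM-scaled CPM of each gene in each library on a log axis, red for the 2 P-body libraries and blue for the 2 cytoplasm libraries, and black lines give the mean of each fraction. Red dots lie above blue dots for Tet2, Nanog, Nr5a2, Sox2, Klf4, Dppa2, Zfp42, Prdm14 and the Zscan4 genes, though with library size only Nanog is lower in P-bodies, and blue dots lie above red dots for Tfcp2l1, Pou5f1, Esrrb and Dppa5a.

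Signalling pathways that set the state of ES cells were examined next. LIF, named in the treatment label of these cells, acts through a receptor with a chain encoded by Il6st, the kinase JAK1 and the factor STAT3. Of 15 genes of this pathway 7 were enriched (46.7%) and 2 depleted (13.3%), beside 42.7% and 23.1% of all genes of this level, with a median of 0.16 (-0.24 with library size only, 0.31 without P-body replicate 2). Il6st had 614 and 603 CPM in P-bodies and 333 and 350.0 in cytoplasm, a change of 0.83 ± 0.04, and Pias1, an inhibitor of STAT activity, had 408 and 404 CPM in P-bodies and 159.7 and 165 in cytoplasm, a change of 1.32 ± 0.05. Lif itself changed by 0.83. The depleted members, Tyk2 and Pias3, had changes of -0.32 and -0.29 that DESeq2 did not call. In the FGF and ERK pathway, which drives exit from the naive state, 14 of 25 genes were enriched (56%) and 2 depleted (8%), with a median of 0.43 (0.03 with library size only). The kinase gene Braf and the adaptor Frs2 changed by 1.17 and 0.98, whereas the receptor gene Fgfr1 changed by -0.36.

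The WNT pathway had 10 enriched (35.7%) and 11 depleted (39.3%) genes of 28, beside 42.7% and 23.1% of all genes of this level, with a median of 0.08 (-0.33 with library size only). This median turned to -0.0044 when P-body replicate 2 was left out and was 0.02 when cytoplasm replicate 2 was. Its receptor genes Fzd6 and Fzd3 and the feedback inhibitor Axin2 changed by 1.61, 0.78 and 0.98. Gsk3a, a kinase of the destruction complex, and Tcf7l1, the repressor of WNT targets in ES cells, changed by -0.99 and -0.92. In the BMP, nodal and SMAD pathway 11 of 24 genes were enriched (45.8%) and 3 depleted (12.5%), with a median of 0.23 (-0.17 with library size only). The receptor gene Bmpr1a and the signal transducer Smad5 changed by 1.16 and 1.06. The related corepressor genes Skil and Ski lay on opposite sides, at 1.09 and -0.42.

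The mRNAs of P-body proteins were not set apart as a group. Of 24 genes for P-body core and decapping factors 11 were enriched and 4 depleted, 45.8% and 16.7% beside 42.7% and 23.1% of all genes of this level, and their median was 0.12 (-0.28 with library size only, 0.21 without cytoplasm replicate 2). Lsm14a had 294 and 297 CPM in P-bodies and 172 and 149 in cytoplasm, a change of 0.88 ± 0.06, and whether reads of the tagged copy are included was not tested. Ddx6 had 438 and 413 CPM in P-bodies and 266 and 255 in cytoplasm, a change of 0.71 ± 0.05, and Edc4, a scaffold of the decapping complex, had 58.3 and 61.5 CPM in P-bodies and 80.6 and 83.0 in cytoplasm, a change of -0.45 ± 0.07. The cap-binding protein gene Eif4e changed by 1.70 ± 0.04, the decapping cofactor Pnrc2 by 1.67 and the decapping enzyme Dcp2 by 1.12. Upf1, the helicase of nonsense-mediated decay, changed by -0.84. Deadenylation genes, which shorten poly(A) tails, had 11 enriched (55%) and 1 depleted (5%) of 20, with a median of 0.38 (-0.03 with library size only). Cnot4, Cnot6 and Tob1 changed by 1.65, 1.49 and 1.43 and Pan2 by -0.28.

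RNA-binding repressors of translation had 22 enriched (62.9%) and 8 depleted (22.9%) of 35, beside 42.7% and 23.1% of all genes of this level, with a median of 0.41 (0.01 with library size only). Cpeb2, Cpeb4 and Fxr1 changed by 1.54, 1.26 and 1.12, and Pum2, added after its values were seen, by 1.05. Msi1, Atxn2l and Rbpms changed by -0.72, -0.53 and -0.34. In the microRNA pathway 9 genes were enriched (52.9%) and 5 depleted (29.4%) of 17, with a median of 0.12 (-0.28 with library size only). Tut4, which uridylates the let-7 precursor, had 1524 and 1485 CPM in P-bodies and 608 and 609 in cytoplasm, a change of 1.31 ± 0.04. Lin28b changed by 1.27 ± 0.08. Tnrc6a, a partner of Argonaute in silencing, had 1066 and 1043 CPM in P-bodies and 461 and 468 in cytoplasm, giving a change of 1.18 ± 0.04. Lin28a had only 4.82 and 5.06 CPM in P-bodies and 5.63 and 6.53 in cytoplasm and did not pass, at -0.30 ± 0.24 (0.26 with the higher receptor rate subtracted).

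Most transcripts for ribosomal proteins and the respiratory chain were depleted. Of 84 cytosolic ribosomal protein genes 74 were depleted (88.1%) and 2 enriched, beside 23.1% and 42.7% of all genes of this level. Their median was -0.65 (-1.05 with library size only). Rpl39 had 22.4 and 17.6 CPM in P-bodies and 59.4 and 50.8 in cytoplasm, a change of -1.46 ± 0.12, and Rps4x had 109 and 85.4 CPM in P-bodies and 208 and 222 in cytoplasm, a change of -1.14 ± 0.07. The 2 enriched members, Rpl7l1 and Rps2, had small changes of 0.27 and 0.14 that turned to -0.13 and -0.26 with library size only. Rpl7l1 lost its call without P-body replicate 1, at 0.18, and Rps2 without P-body replicate 2 or cytoplasm replicate 1, at 0.11 and 0.09. Ribosomal protein genes have many processed pseudogenes, so reads of single members can be divided. Of 77 nuclear-encoded subunits and assembly factors of the respiratory chain 54 were depleted (70.1%) and 2 enriched, with a median of -0.57 (-0.97 with library size only). Ndufb3, Ndufb2 and Atp5l changed by -1.31, -1.29 and -1.28, and the assembly factor gene Ndufaf4 by 1.42. Mitochondrial ribosomal protein genes had 14 depleted (24.6%) and 8 enriched (14.0%) of 57, with a median of -0.23 (-0.63 with library size only, -0.11 without P-body replicate 1), which includes Mrpl21 at -1.01 and Mrpl32 at 1.43. Of 34 proteasome genes 18 were depleted (52.9%) and 5 enriched, with a median of -0.29 (-0.69 with library size only, -0.19 without cytoplasm replicate 2). The core particle genes Psmb5 and Psmb6 changed by -1.20 and -1.17, and Psmc6, an ATPase of the regulatory particle, by 0.97.

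Glycolysis genes had 18 depleted (85.7%) and 2 enriched of 21, beside 23.1% and 42.7% of all genes of this level. Their median was -0.40 (-0.80 with library size only). Pfkl, the liver-type phosphofructokinase, and the lactate exporter Slc16a3 changed by -0.78 and -0.77. Of 25 cytoskeleton genes 18 were depleted (72%) and 3 enriched, with a median of -0.36 (-0.76 with library size only). Actb had 452 and 496 CPM in P-bodies and 931 and 917 in cytoplasm, a change of -0.96 ± 0.04, and Tuba1a and Myh9 changed by -0.71 and -0.71. Of 21 genes for membrane and secreted proteins of ES cells 15 were depleted (71.4%) and 5 enriched, with a median of -0.40 (-0.80 with library size only). The receptor genes Notch2, Igf2r and Notch1 changed by -0.96, -0.81 and -0.75. Chaperonin and heat shock genes had 7 enriched and 7 depleted of 21, 33.3% each, with a median of -0.03 (-0.43 with library size only) that ranged from -0.08 to 0.04 as each library was left out, with the sign turned without P-body replicate 2 or cytoplasm replicate 2. Translation initiation and elongation genes had 16 enriched (41.0%) and 19 depleted (48.7%) of 39, with a median of -0.20 (-0.60 with library size only, -0.08 without cytoplasm replicate 1). In this list Eif3e changed by 1.24 and Eif3f, of the same complex, by -0.90. Cholesterol synthesis genes had 10 enriched and 10 depleted of 24, 41.7% each, beside 42.7% and 23.1% of all genes of this level. Their median was -0.15 (-0.55 with library size only). Hsd17b7, Idi1 and Hmgcs1 changed by 1.46, 0.90 and 0.82, and Tm7sf2 and Fdps by -0.81 and -0.80.

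Replication-dependent histone genes have mRNAs that end in a stem-loop in place of a poly(A) tail. Of 38 such genes 30 were depleted (78.9%) and 2 enriched, beside 23.1% and 42.7% of all genes of this level. Their median was -0.78 (-1.18 with library size only). H2ac13 had 4.82 and 3.80 CPM in P-bodies and 13.6 and 9.84 in cytoplasm, a change of -1.44 ± 0.23. The 2 enriched members were H3c15 and H3c13, at 1.89 ± 0.16 and 0.84 ± 0.22, the latter not called by DESeq2 or with library size only. Histone copies share sequence, so the split among them is uncertain. Subunits of RNA polymerase II and Mediator had 10 enriched (27.0%) and 5 depleted (13.5%) of 37, with a median of -0.04 (-0.44 with library size only) that ranged from -0.02 to 0.05 as each library was left out, above 0 when this was P-body replicate 1 or cytoplasm replicate 2. The largest subunit gene, Polr2a, had 526 and 539.6 CPM in P-bodies and 1204 and 1182 in cytoplasm, a change of -1.16 ± 0.04. Nuclear pore and transport genes had 24 enriched (61.5%, beside 42.7%) and 10 depleted (25.6%) of 39, with a median of 0.24 (-0.17 with library size only, 0.15 without cytoplasm replicate 1). Kpna3, Kpna2 and Nup54 changed by 1.51, 1.28 and 1.25, and Nup210 and Nup214 by -0.86 and -0.70.

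**Figure D4:**
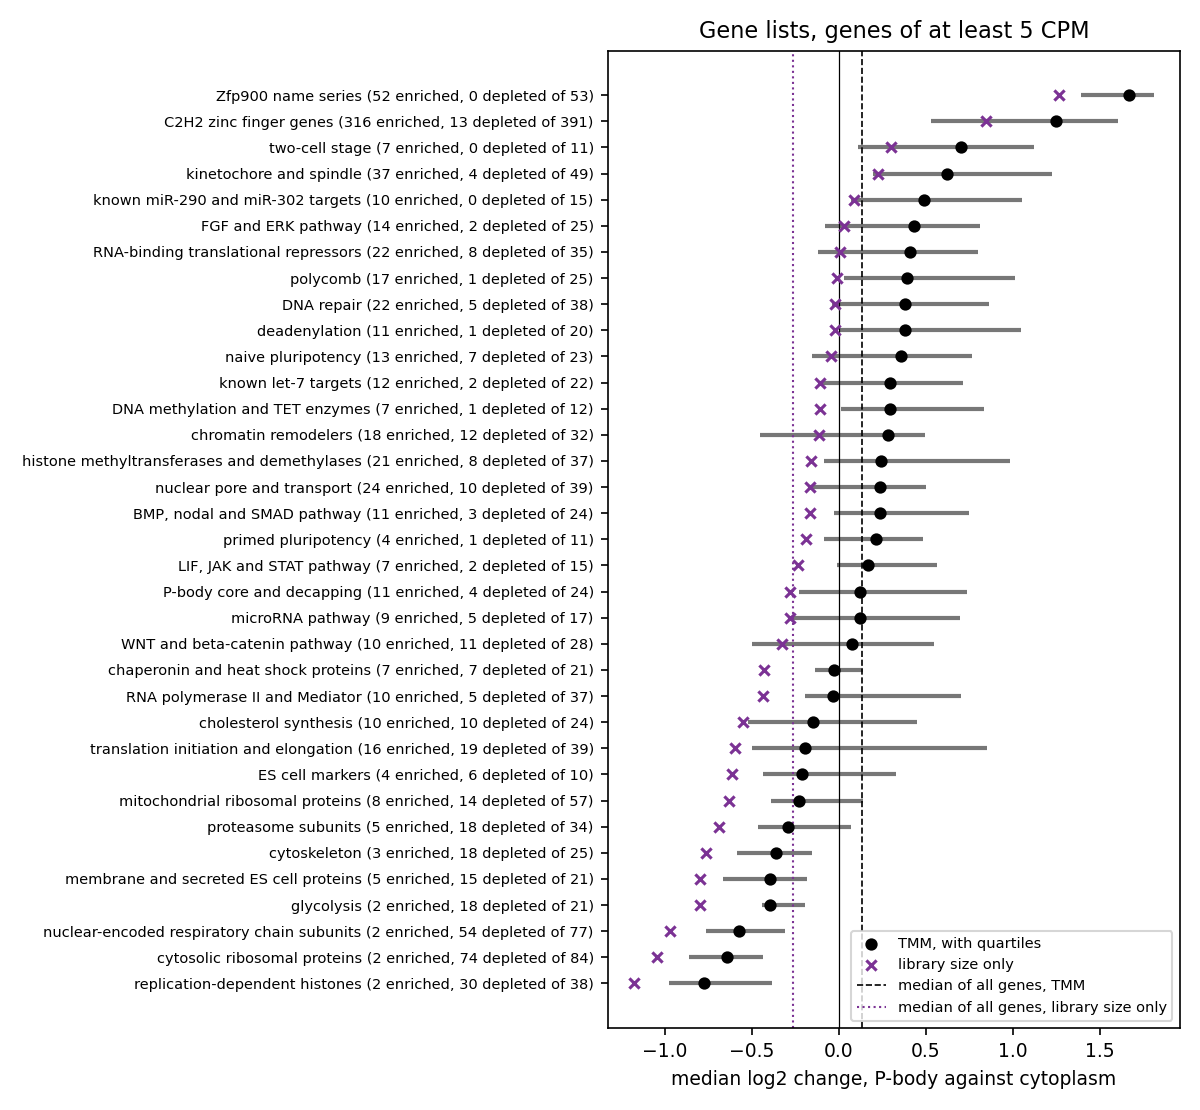
Black dots give the median log2 change of P-body against cytoplasm over the members of at least 5 CPM in each list, with grey lines from the lower to the upper quartile, and purple crosses give the median with library size only. Vertical lines mark the median of all genes of that level, 0.14 with TMM and -0.27 with library size only. Zinc finger genes lie farthest to the right at 1.67 and 1.25 and histone and ribosomal protein genes farthest to the left at -0.78 and -0.65, and lists between 0 and 0.40 with TMM move to or below 0 with library size only.

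RNAs known from the nucleus did not move together. Of 8 such RNAs of at least 5 CPM, Neat1, Firre and Xist were depleted, at -1.77, -0.81 and -0.77, and Rian, Tug1 and Malat1 enriched, at 1.33, 1.24 and 0.22, the last of which turned to -0.18 with library size only. The call of Xist was lost by DESeq2 (adjusted p = 0.0651), without P-body replicate 2, at -0.63, and with the lower receptor rate subtracted, at 0.03. Xist had 5.90 and 4.96 CPM in P-bodies and 9.88 and 8.70 in cytoplasm, and with the higher rate subtracted its cytoplasm counts fell near 0 and its direction turned. Among 85 long noncoding RNAs of this level with an annotated transcript 44 were enriched (51.8%) and 13 depleted (15.3%), and among 8842 protein-coding genes 3782 (42.8%) and 2027 (22.9%).

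Base composition was the transcript property that followed P-body enrichment most closely. Over 9043 genes of at least 5 CPM with an annotated transcript, the Spearman correlation of the log2 change with GC content was -0.697, and -0.735 over 5790 genes of at least 20 CPM. Taken for each of the 4 pairs of a P-body and a cytoplasm library it lay between -0.699 and -0.666, whereas between the P-body libraries it was -0.202 and between the cytoplasm libraries -0.0800. Under 40% GC, 93.7% of 525 genes were enriched and 1.33% depleted, with a median log2 change of 1.25. From 48 to 52% GC, 36.8% of 1991 were enriched and 20.7% depleted, and at 56% or more 3.44% of 1426 were enriched and 50.4% depleted, with a median of -0.38. The Spearman correlation was -0.606 with the GC content of the coding sequence, -0.585 with GC3, the GC content at the last position of codons, -0.586 with that of the 3′ untranslated region (3′ UTR) and -0.173 with that of the 5′ UTR. Median GC3 was 50% in enriched genes and 65.5% in depleted genes.

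Length followed enrichment less. The Spearman correlation was 0.264 with 3′ UTR length, 0.177 with transcript length, 0.0778 with 5′ UTR length and 0.0397 with coding length, and the last turned to -0.0330 over genes of at least 20 CPM. The median 3′ UTR was 1717 bases long in enriched and 880.0 in depleted genes. Genes with 3′ UTRs under 250 bases had a median log2 change of -0.21 and those with 4000 bases or more 0.49. All these are descriptions across genes, which are not independent replicates, and length and composition of these transcripts are themselves related. GC content also differed between the lists, with medians of 38.6% in the Zfp900 name series, 44.1% in C2H2 zinc finger genes and 45.7% in kinetochore and spindle genes, and of 53.5% in glycolysis and 53.2% in cytoskeleton genes. The ribosomal protein genes, with a median GC content of 51.3%, had a median 3′ UTR of only 84.0 bases.

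**Figure D5:**
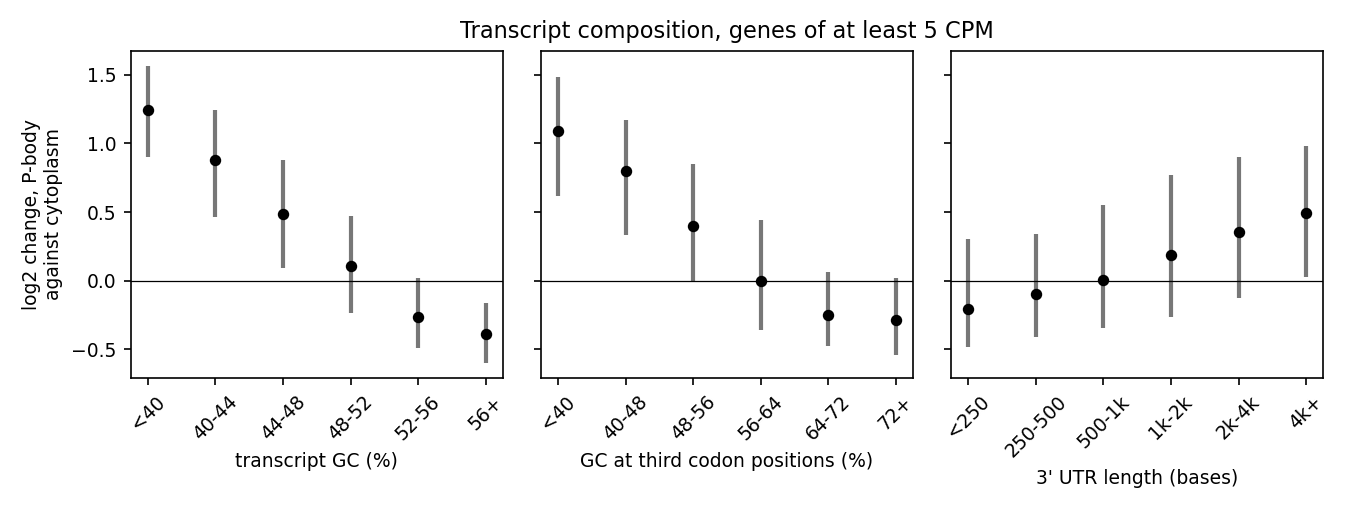
Black dots give the median log2 change of P-body against cytoplasm, with grey lines from the lower to the upper quartile, for genes of at least 5 CPM in classes of transcript GC content, GC3 and 3′ UTR length. The median falls from 1.25 to -0.38 over the GC classes and from 1.09 to -0.29 over the GC3 classes, and it rises from -0.21 to 0.49 over the length classes.

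MicroRNAs guide Argonaute to sites in 3′ UTRs through their seed, bases 2 to 8. The miR-290 and miR-302 clusters, which share a seed and are the major microRNAs of ES cells, promote fast cycling and self-renewal, while let-7 rises on differentiation and is held back by LIN28. The mature human sequences of RefSeq (GRCh38.p14) are given because their seeds define the words searched, with the seed in capitals.
hsa-let-7a-5p: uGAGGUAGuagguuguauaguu
hsa-miR-302a-3p: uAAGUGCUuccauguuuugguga
hsa-miR-372-3p: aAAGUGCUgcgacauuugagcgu
hsa-miR-300: uAUACAAGggcagacucucucu
hsa-miR-381-3p: uAUACAAGggcaagcucucugu
The first has a seed of its own, miR-302a and miR-372 share the seed of the ES cell clusters, and miR-300 and miR-381 share a further one. Mature mouse sequences were not available. Whether each mouse microRNA of the same name carries the same seed was not checked, so matches below refer to the human seeds. The word that pairs with the let-7 seed is CTACCTC in DNA letters. For the ES cell clusters the word is AGCACTT, and for miR-300 and miR-381 the word is CTTGTAT. The word recognised by Pumilio proteins was taken as TGTANATA. An AU-rich word, TATTTAT, was taken as well. All were counted in the 3′ UTR of 1 transcript per gene and on the transcript strand only, and no word contains another. A match is a description of the letters and not a shown site.

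For known microRNA targets, and for a pair of strongly enriched genes with a Pumilio word, the first match in the mouse 3′ UTR is shown with 10 bases on each side (GENCODE M21, mm10), with the match in capitals, as written on the transcript.
Lin28b, let-7 match, chr10:45381013-45381039, minus strand: ggcgggaagtCTACCTCatgcaagcac
Hmga2, let-7 match, chr10:120364215-120364241, minus strand: cattcaatttCTACCTCagcatcagtt
Trim71, let-7 match, chr9:114512463-114512489, minus strand: tgcctaagtcCTACCTCagcttaaatt
Arid4b, miR-302 match, chr13:14197740-14197766, plus strand: gacttgctagAGCACTTtgcacttaat
Kif18a, Pumilio word, chr2:109341634-109341661, plus strand: ggtgtaaaaaTGTAGATAcatatgtcca
Ccne2, Pumilio word, chr4:11204134-11204161, plus strand: ttaaacttgcTGTATATAgaatagctac
The first match of Lin28b starts at base 36 of a 3′ UTR of 4445 bases that holds 4 matches, and Hmga2 and Trim71 hold 4 each too. Lin28b and Hmga2 were enriched, at 1.27 and 1.26, and Trim71, with as many matches, was depleted, at -0.28, a call that was lost without cytoplasm replicate 2, at -0.16. Of 22 known let-7 targets 12 were enriched (54.5%) and 2 depleted (9.09%), beside 42.7% and 23.1% of all genes of this level, with a median of 0.30 (-0.11 with library size only). Of 15 known targets of the miR-290 and miR-302 clusters 10 were enriched (66.7%) and 0 depleted by edgeR (1 at an unadjusted p under 0.05 and 0 by DESeq2), with a median of 0.49 (0.08 with library size only). Arid4b had 654 and 641 CPM in P-bodies and 248 and 247 in cytoplasm, a change of 1.39 ± 0.04, and Irf2 and the retinoblastoma family gene Rbl2 changed by 1.70 and 1.24.

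Over 8923 coding genes of at least 5 CPM, the let-7 match was found in 10.9%, beside 10.1% of all annotated 3′ UTRs, and the median log2 change was 0.18 with it and 0.13 without. The miR-302 match was found in 19.1% (16.9% of all 3′ UTRs), with medians of 0.47 and 0.07, and the miR-300 and miR-381 match in 14.4% (12.7%), with medians of 0.49 and 0.08. The Pumilio word was found in 29.4% (26.2%), with medians of 0.48 and 0.00, and the AU-rich word in 32.5% (29.9%), with medians of 0.43 and 0.00. A longer 3′ UTR has more places for any of these words, and the share with a match differed with base composition, so the medians were taken again among 3′ UTRs from 1000 up to 2000 bases long with a 3′ UTR GC content under 44%. With and without the match they were then 0.84 and 0.65 for let-7, 0.84 and 0.63 for miR-302, 0.67 and 0.66 for miR-300 and miR-381, 0.75 and 0.61 for the Pumilio word and 0.75 and 0.60 for the AU-rich word. At 44% GC or more the medians were -0.24 and -0.16 for let-7, -0.10 and -0.21 for miR-302, -0.14 and -0.19 for miR-300 and miR-381, -0.10 and -0.22 for the Pumilio word and -0.14 and -0.20 for the AU-rich word. Within these classes the gap between genes with and without a match was at most 0.21, smaller than the gap between the classes of GC content themselves.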

How the data were processed

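The 4 mouse libraries are part of a table of counts per gene that the authors deposited. Per the labels and the methods of the study, reads were processed with the nf-core RNA-seq pipeline and salmon against mm10 with RefSeq genes, and genes with few reads were left out, so that each gene had at least 10 counts over the 4 libraries. The authors list DESeq2 for their own tests, and the fold changes and p-values they deposited were not used. Here the counts were tested with the edgeR 4.0.16 quasi-likelihood test in R 4.3.3, with TMM factors, no covariate, no further filter and Benjamini-Hochberg adjustment over 15881 genes. Tables were made with Python 3.11.15 and pandas 2.3.3. The fit was tested on simulated data. Depth ran from 8148119 to 11721055 counts per library, and counting limits the precision most for genes under 5 CPM. The labels' numbers 1 and 2 were not used to pair libraries.

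Transcript sequence, length and position came from GENCODE M21 on mm10, 1 transcript per gene, and 15506 of the 15881 genes (97.6%) were matched by symbol. Named genes are the 15 with the largest change in each direction among called genes of at least 20 CPM without overlap between fractions, up to 3 called members per direction and list of at least 5 CPM, and a fixed set (Pou5f1, Sox2, Nanog, Zfp42, Dppa2, Lsm14a, Ddx6, Edc4, Polk, Tet2, Lin28a, Kif18a and 3 Zscan4 genes). Some genes of this rule are left out, and those added are named as such. The comparison, the 34 gene lists and 12 name patterns and the named genes were chosen with earlier results of these data known. Alternatives were DESeq2 1.42.0, RLE factors, library size only, edgeR's filterByExpr, no ribosomal RNA genes, each library left out, a replicate block, cutoffs of 1 and 20 CPM and, added after seeing the data, subtraction of the receptor level per kb. A few genes are not reported here.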

Additional observations from a re-analysis of the deposited data

How the results depend on the processing

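With library size only 2591 genes were enriched and 6609 depleted, and they numbered 2514 and 4427 at 5 CPM or more and 77 and 2182 below it. The 2514 are 64.2% of those called with TMM, and the 2121 depleted genes were all kept. DESeq2 called 1803 genes depleted in all, and 52 enriched and 350 depleted under 5 CPM, while at 5 CPM or more it called 3329 and 1453, and filterByExpr left 713 depleted under 5 CPM. Subtracting the receptor level, an alternative chosen after seeing the data, left 2068 genes depleted in all with the lower rate and 1745 with the higher rate. Under 5 CPM it gave 642 and 1398 enriched and 182 and 72 depleted, and values of genes brought near 0 counts in cytoplasm are then not usable. Dividing the genes at 1 CPM put 14 enriched genes below the limit, and dividing them at 20 CPM put 933 enriched and 1804 depleted there. Leaving out each library gave 122 to 176 enriched and 765 to 1041 depleted genes under 5 CPM, the lowest when P-body replicate 1 or, for depleted genes, cytoplasm replicate 1 was left out, where the other library of that fraction was assumed to vary like those that remained. RLE factors and the fit without ribosomal RNA genes kept each count of calls within 1.5 times. With a replicate block, 3947 genes of at least 5 CPM were enriched and 2183 depleted, 3909 and 2113 of them shared with the unblocked fit. Nothing states what equally numbered libraries share, their deviations did not correlate (-0.03 over genes of at least 5 CPM), and of the named genes only Amd1, at -0.87, gained a call. The Spearman correlation with GC content was -0.735 at 20 CPM or more and -0.664 with the higher receptor rate subtracted. The Spearman correlation with GC3 was -0.621 at 20 CPM or more and -0.569 and -0.528 with the lower and higher rates, and with 3′ UTR GC content it was -0.607 at 20 CPM or more and -0.549 with the higher rate. Coding length had -0.0330 at 20 CPM or more and 0.0472 and 0.0595 on subtraction, and 3′ UTR length 0.285 and 0.313. Without each library the correlation ranged from -0.702 to -0.679 for GC content, -0.591 to -0.570 for GC3, -0.589 to -0.572 for 3′ UTR GC content, 0.0358 to 0.0423 for coding length and 0.257 to 0.267 for 3′ UTR length. Among named genes, library size only turned Nanog to -0.13, Malat1 to -0.18, Rps2 to -0.26, Rpl7l1 to -0.13 and Dux to -0.0948. Subtraction turned Lin28a to 0.26 and Xist to 0.0314 and 8.25, and Amd1 ranged from -2.31 to 0.0867 as each P-body replicate was left out in turn. The cause of these shifts was not tested.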
